A study of Mus musculus with 4 samples.

Results

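The complement genes C1qa, C1qb, C1qc, C1ra, C1s1, C4b, C3, Serping1 and C3ar1 were followed in single-cell RNA sequencing of mouse hearts. They are 9 of the 31053 genes in the count tables, taken by their symbols, and each had transcripts counted in all 4 libraries. The genes were chosen with differences between the diets in these libraries already known, so diet differences are given as descriptions. Where the fits called members between the diets the counts are printed, but nothing is read from them. Conclusions from tests are kept to differences between cell classes, which are not the contrast the genes were chosen on.

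The mice were 6 weeks old, and their mothers had eaten one of 2 diets through pregnancy and lactation. The labels call the mothers "high fibre intake" (a diet high in resistant starch) or "control diet-fed" (the series text describes the other diet as low in resistant starch), and all offspring were moved to standard chow at 3 weeks. Hearts were digested with enzymes, and live, metabolically active, nucleated cells were sorted and captured as single cells, giving 2 libraries per diet, called here high-fibre 1 and 2 and control 1 and 2. The labels name no strain, genotype or sex and not how many animals made a library, so an error given here is the spread between libraries, which may be technical.

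Complement is a cascade of blood and tissue proteins that marks microbes, immune complexes and dying cells for removal. In the classical pathway the recognition molecule C1q, assembled from A, B and C chains, binds a target and activates the serine proteases C1r and C1s. C1s cuts C4 and C2 into a convertase that splits C3, the protein on which all complement pathways converge, and the fragment C3a signals through the receptor encoded by C3ar1. The C1 inhibitor, encoded by Serping1, blocks C1r and C1s. Most complement proteins in blood come from the liver, but C1q is made largely by macrophages, and stromal cells of many tissues make other components.

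Cells were assigned by the transcripts of marker genes, counted as UMIs (unique molecular identifiers, each standing for 1 captured RNA molecule). A cell passed a gate when both genes of a pair had at least 1 UMI: Csf1r and Adgre1 for macrophages, Col1a1 and Dcn for fibroblasts, Pecam1 and Cdh5 for endothelial cells, Kcnj8 and Vtn for pericytes. Smooth muscle cells needed at least 2 Myh11 UMIs. Of 22346 cells kept, 16937 (75.8%) fell into 1 of these 5 gates: 2929 macrophages, 6495 fibroblasts, 6502 endothelial cells, 835 pericytes and 176 smooth muscle cells. A further 4 side gates gave levels only: 847 B cells, 383 T cells, 155 NK cells and 119 neutrophils. Cells passing more than 1 gate (643) or none (3139) were counted apart. Between 7.01% (fibroblasts) and 17.9% (macrophages) of the cells of a main gate sat exactly at the threshold. None of the markers fixed to check each main gate was at 0 in that gate, and the 15 macrophage markers summed to between 30475 and 34056 CPM in the macrophage gate of each library. CPM here means UMIs of a gene per 1000000 UMIs of all genes summed over the cells of a gate in a library.

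Libraries differed in size and shared some cell barcodes. They held 27577599 (control 2) to 69600492 (high-fibre 2) UMIs and 2633 to 7546 kept cells, with a median of 5743.5 and 6093.5 UMIs per kept cell in the high-fibre libraries and 7686 and 7454 in the controls. Any pair of libraries shared 463 to 747 barcodes, up to 25.2% of the barcodes of control 2. Shared barcodes made up 2768 kept cells (12.4%), with a median of 725 UMIs against 7096 for the others. In control 2, however, they were deep, with medians of 17669 to 20048.5 UMIs against 615.5 to 680 in the library they were shared with. Leaving them out took control 2 from 601 to 183 fibroblasts (9530310 to 1907082 UMIs) and from 262 to 142 macrophages. Values without shared barcodes rest on this smaller control 2. Where the same barcode was gated in both libraries of a pair, it passed the same gate in 833 of 859 cases (97.0%). Diet values are therefore also given without shared barcodes where they are the base of a statement, except shares of macrophages, counts of markers and values without cells of many C1q UMIs. Among cells whose sex could be read from Xist or Y-linked UMIs, the share with Y-linked UMIs ran from 25.7% (control 1) to 64.1% (high-fibre 1).

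In the annotation of the GRCm38 mouse assembly (GENCODE M21) all 9 are protein-coding. C1qa (chromosome 4, 136895917 to 136898803), C1qc (136889804 to 136893065) and C1qb (136880129 to 136886187) lie on the minus strand within 18675 bases of each other. C1ra (chromosome 6, 124512405 to 124523443, plus strand) and C1s1 (124530345 to 124542359, minus strand) are neighbours, and C3ar1 lies on the same chromosome (122847138 to 122856161, minus strand). C4b (chromosome 17, 34728380 to 34743882), C3 (chromosome 17, 57203970 to 57228136) and Serping1 (chromosome 2, 84765387 to 84775444) are on the minus strand. Libraries of this kind read the 3′ end of a transcript, and there some members resemble a neighbouring copy. Of the 451 words of 50 bases in the last 500 bases of the longest coding transcript, 38.1% of those of C4b also occurred in C4a, 19.1% of those of C1ra in C1rb and 18.0% of those of C1s1 in C1s2. Levels of C4b, C1ra and C1s1 are uncertain to that extent, and C4a was not analysed here. The other 6 members shared none of these words with another gene. C1s1 overlaps Gm16567 on the other strand, and the microRNA gene Mir6978 lies within C3 on the same strand.

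The promoters of 3 genes that followed macrophages are shown, since C1qb and C1qc are neighbours whose levels moved together over the gates. They are 300 bases from RefSeq on GRCm38.p6, read 5′ to 3′ on the strand of the gene, with 250 bases before and 50 after the start. Capitals mark AGGAAG or its reverse complement CTTCCT, the core that ETS-family factors such as the macrophage factor PU.1 bind. The C1qb window is chr4:136886151-136886450, the C1qc window chr4:136892865-136893164 and the C3ar1 window chr6:122856108-122856407, all on the minus strand.
C1qb: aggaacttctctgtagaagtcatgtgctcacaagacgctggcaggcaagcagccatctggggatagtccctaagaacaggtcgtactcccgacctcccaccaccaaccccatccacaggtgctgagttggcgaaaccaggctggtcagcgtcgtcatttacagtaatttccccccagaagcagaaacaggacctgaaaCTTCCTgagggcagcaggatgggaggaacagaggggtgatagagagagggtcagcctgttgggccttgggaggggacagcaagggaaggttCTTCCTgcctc
C1qc: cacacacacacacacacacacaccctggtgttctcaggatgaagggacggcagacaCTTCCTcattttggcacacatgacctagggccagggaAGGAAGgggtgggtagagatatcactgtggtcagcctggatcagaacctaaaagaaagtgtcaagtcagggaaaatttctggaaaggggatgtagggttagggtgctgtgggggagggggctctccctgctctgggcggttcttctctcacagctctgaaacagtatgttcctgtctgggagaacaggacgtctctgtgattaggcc
C3ar1: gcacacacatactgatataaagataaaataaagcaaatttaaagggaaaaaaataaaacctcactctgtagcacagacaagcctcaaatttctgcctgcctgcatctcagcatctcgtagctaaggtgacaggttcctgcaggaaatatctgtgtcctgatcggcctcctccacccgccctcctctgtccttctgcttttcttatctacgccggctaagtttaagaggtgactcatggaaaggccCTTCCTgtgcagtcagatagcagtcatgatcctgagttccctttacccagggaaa
C1qb held a match 52 bases before and another 39 bases after its start, C1qc held matches 157 and 194 bases before, and C3ar1 held 1 match 5 bases before. Of 32851 promoters of this length, 35.4% held such a match on either strand. The C1ra promoter (chr6:124512371-124512670, plus strand), from a gene counted mostly in fibroblasts, is shown for comparison.
C1ra: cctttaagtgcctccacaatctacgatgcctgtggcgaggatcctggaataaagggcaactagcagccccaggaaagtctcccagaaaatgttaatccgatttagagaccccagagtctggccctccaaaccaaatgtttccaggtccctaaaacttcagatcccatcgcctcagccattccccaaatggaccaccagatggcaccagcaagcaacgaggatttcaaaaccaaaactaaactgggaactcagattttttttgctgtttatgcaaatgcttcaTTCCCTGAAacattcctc
Here capitals mark TTCNNNGAA, the form of site that STAT factors bind, which reads the same on both strands. The match began 32 bases after the start, and 8.3% of all promoters held one. AGGAAG was not limited to the macrophage genes: C1s1, a stromal and mural gene here, held 1 match. It lay 8 or 46 bases before the start, depending on which of 2 listed starts was used. C1ra had no AGGAAG, and the C3 window held neither run of letters, which says only that these letters are not in that window. The 2 motifs were searched independently and may overlap. A table entry was found for 6 of the 9 genes, and none for C1qa, C4b and Serping1.

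The 3 chains of C1q were counted in macrophages. C1qa, the A chain, stood in the macrophage gate at 5953 CPM in high-fibre 1, 6414 in high-fibre 2, 6430.5 in control 1 and 6416.5 in control 2, a mean of 6303 ± 234 CPM (SD, n = 4). All 4 libraries lay close together, and no other main gate exceeded 37.6 CPM in any library. The B chain C1qb averaged 5829.6 ± 328 CPM and the C chain C1qc 4041 ± 265 CPM (SD, n = 4). The macrophage gate held 89.6% of all C1qa UMIs, 88.9% of C1qb UMIs and 89.5% of C1qc UMIs, and most of the rest was in cells of no gate or of more than 1 gate. In 2817 of 2929 macrophages the 3 chains summed to 10 UMIs or more, with a median of 170.0 per cell.

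**Figure D1:**
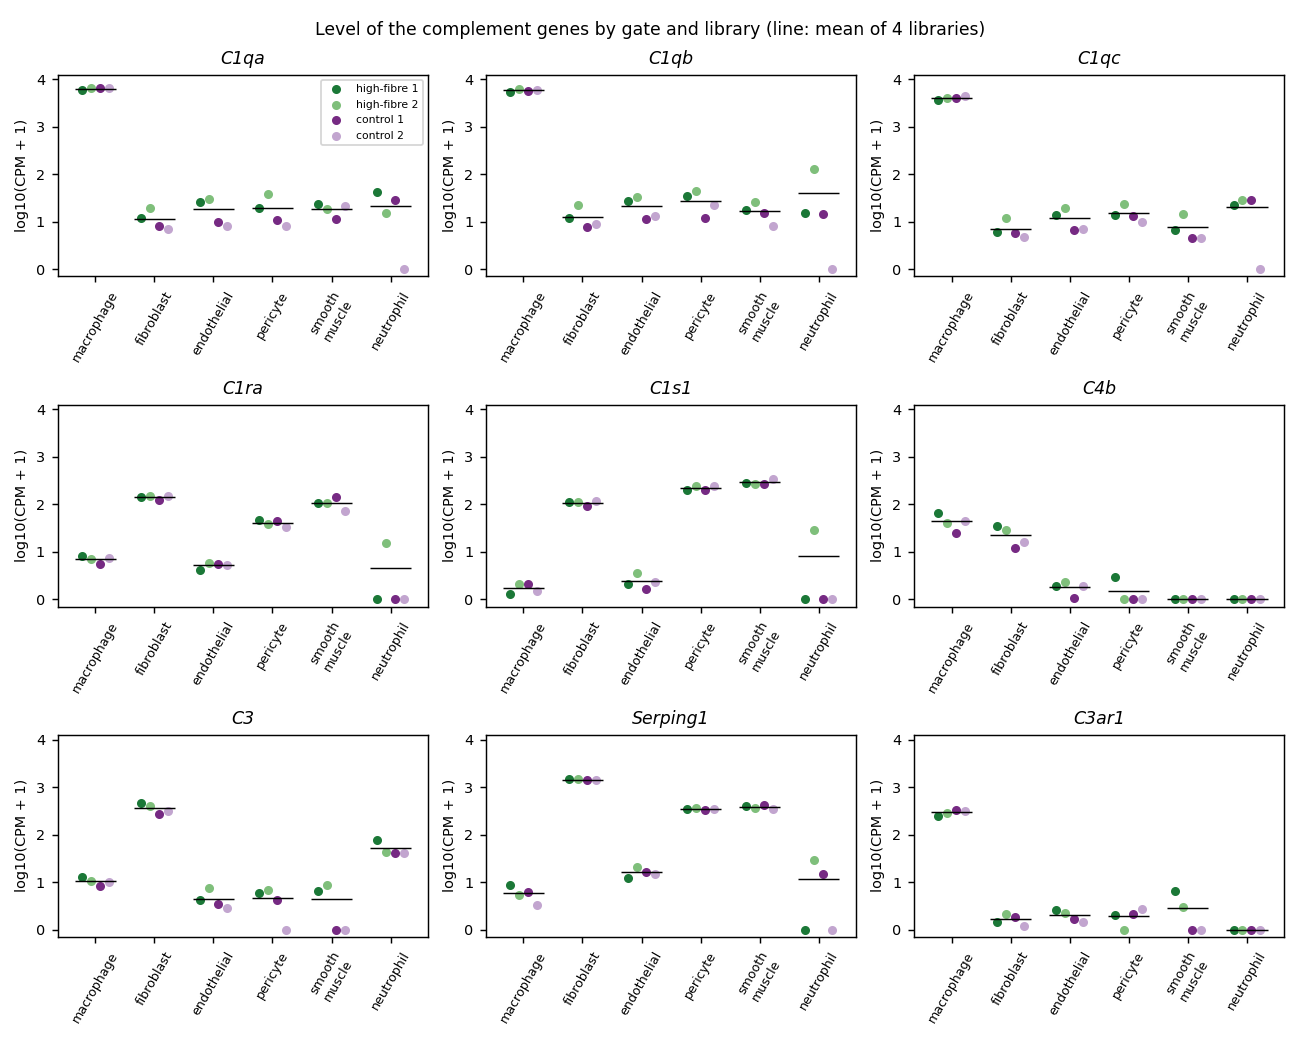
Level of each complement gene as log10(CPM + 1) on a linear axis, for 5 main gates and the neutrophil side gate. Points are the 4 libraries (green for high-fibre, purple for control) and lines their means. C1q chains and C3ar1 stand out in macrophages, C3 and Serping1 in fibroblasts, and, of the gates shown, C4b in macrophages. C1ra was highest in fibroblasts and smooth muscle, which did not differ by the test.

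The step from macrophages to the next gate, pericytes, was 540-fold for C1qa (log2 9.08, SE 0.391, adjusted p = 8.82e-11), 353-fold for C1qb (log2 8.46, SE 0.335, adjusted p = 3.39e-11) and 448-fold for C1qc (log2 8.81, SE 0.324, adjusted p = 1.44e-11). These come from the quasi-likelihood test of edgeR on UMIs summed per gate and library, with Benjamini-Hochberg adjustment over 13770 genes. Gates differ in very many genes, and 66.3% of those tested were called between macrophages and pericytes. Below macrophages the order was resolved only in part. Endothelial cells were above fibroblasts for C1qb (log2 0.75, SE 0.28, adjusted p = 0.0286) and C1qc (log2 0.75, SE 0.298, adjusted p = 0.0369). No pair of gates next to each other in rank passed for any C1q chain, in pairs where 25.3% (pericytes and smooth muscle) to 73.6% (fibroblasts and endothelial cells) of genes were called, the lowest adjusted p being 0.0734 for C1qa in endothelial cells over fibroblasts. The shares called were 55.5% between endothelial cells and pericytes and 42.5% between endothelial cells and smooth muscle. The fit scales sums by TMM factors, and with totals alone the 3 steps were log2 8.43, 7.82 and 8.17. Without shared barcodes they were log2 9.13, 8.51 and 8.85.

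Outside macrophages the C1q transcripts were thinly spread. A C1qa UMI was found in 97.2% of macrophages, at a median depth of 9604 to 13326 UMIs per cell, against 11.5% of fibroblasts at 11238 to 16132 UMIs and 9.12% of endothelial cells at 4687 to 6355 UMIs. Lymphocytes, which are not a known source of C1q, had C1qa UMIs in a similar share, 9.56% of B cells and 8.09% of T cells, at 3471 to 4632 and 5451 to 7106 UMIs per cell. With every cell thinned to 2000 UMIs, leaving out 75 macrophages, 592 fibroblasts, 339 endothelial cells, 171 B cells and 41 T cells that were shallower, the shares were 97.0%, 2.02%, 3.55%, 5.03% and 4.09%. At this depth the C1qa shares of fibroblasts and endothelial cells lay below those of both lymphocyte gates. For the other chains this held only for fibroblasts (2.42% for C1qb and 1.25% for C1qc). Endothelial cells had C1qb in 4.2%, against 4.44% of B cells and 2.63% of T cells. They had C1qc in 2.53%, above the 1.63% of B cells and 2.34% of T cells. Whether the C1q UMIs of any of these gates were expressed there was not tested. Of the 1472 endothelial cells with any C1q UMI, 1226 had exactly 1, and 2 had 10 or more.

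Macrophages are not uniform, and long-resident cardiac macrophages carry Lyve1, Folr2 or Timd4 while cells derived more recently from monocytes carry Ccr2. The macrophage gate was divided by these genes into 1921 cells with at least 2 UMIs of the first kind and no Ccr2, and 174 cells with Ccr2 and none of the others. C1qa stood at 6763 ± 183 CPM in the former and 3488 ± 374 CPM in the latter (SD, n = 4), and the former were higher in 4 of 4 libraries by a mean log2 ratio of 0.96 ± 0.15. C1qc had the same ratio, 0.96 ± 0.15, and C1qb a ratio of 0.69 ± 0.16, each higher in 4 of 4 libraries. The macrophage genes that defined the gate moved with them: Csf1r had a ratio of 0.78 ± 0.10 and Adgre1 of 0.52 ± 0.10, while Lyz2, a lysozyme gene of myeloid cells, stood at 0.08 ± 0.23. H2-Aa, an MHC class II chain, was lower in the Lyve1, Folr2 or Timd4 cells in all 4 libraries (−2.16 ± 0.31). These ratios are between cells of the same library and are given without a test.

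C3ar1, the receptor for C3a, was also a macrophage gene here. It stood at 250.2 and 289.8 CPM in the macrophage gate of the high-fibre libraries and at 328 and 319 CPM in that of the controls, a mean of 297 ± 35 CPM (SD, n = 4). In no library did it exceed 5.64 CPM in another main gate. Endothelial cells, with 39 UMIs, were 370.5-fold lower (log2 8.53, SE 0.162, adjusted p = 1.98e-23, edgeR, where 73.8% of genes were called), and the smooth muscle and pericyte levels rested on 2 and 3 UMIs. A C3ar1 UMI was found in 85.6% of macrophages, against 0.522% of T cells. Like C1qa, it was higher in the Lyve1, Folr2 or Timd4 cells than in the Ccr2 cells in 4 of 4 libraries (319 ± 31.3 against 169 ± 43.2 CPM, log2 ratio 0.94 ± 0.38).

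**Figure D2:**
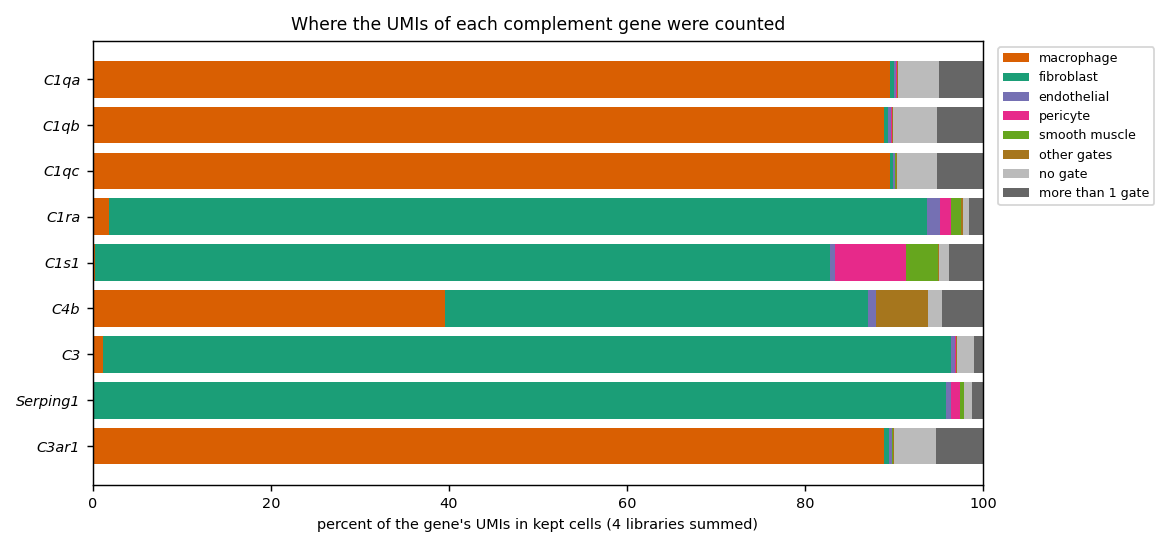
Percent of each gene's UMIs (x axis) counted in each gate, over all kept cells of the 4 libraries, 1 bar per gene. Macrophages hold 88.9% to 89.6% of the UMIs of the C1q chains and C3ar1, fibroblasts 82.5% to 95.7% of those of C1ra, C1s1, C3 and Serping1, and C4b is divided mostly between macrophages (39.6%) and fibroblasts (47.5%).

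The proteases that C1q activates were counted in stromal and mural cells instead. C1ra stood in fibroblasts at 144 and 146 CPM in the high-fibre libraries and 122 and 148 CPM in the controls, a mean of 140.1 ± 12.5 CPM (SD, n = 4). Smooth muscle cells came next at 108 ± 29.3 CPM, and the difference did not pass the test (1.28-fold, log2 0.36, SE 0.147, adjusted p = 0.0515, edgeR, where 40.0% of genes were called). It passed under 5 of the alternatives tried, among them totals in place of scaling factors (adjusted p = 0.04). Pericytes stood lower at 40.0 ± 6.31 CPM (3.36-fold under smooth muscle, adjusted p = 1.44e-08, where 25.3% of genes were called). Macrophages and endothelial cells averaged 6.19 ± 1.10 and 4.23 ± 0.673 CPM (SD, n = 4). Fibroblasts, being many, held 91.9% of the C1ra UMIs.

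C1s1 had another order, with mural cells on top. It stood at 289 ± 33.0 CPM in smooth muscle cells, 221 ± 25.3 CPM in pericytes and 108 ± 10.0 CPM in fibroblasts (SD, n = 4). Each step passed the test: smooth muscle over pericytes by 1.63-fold (log2 0.70, SE 0.129, adjusted p = 7.94e-05, or log2 0.37 with totals alone) and pericytes over fibroblasts by 1.64-fold (log2 0.71, SE 0.0958, adjusted p = 2.19e-07, where 51.9% of genes were called). Every pericyte library, from 197.5 to 244 CPM, lay above every fibroblast library, from 93.1 to 116.5 CPM, and below every smooth muscle library, from 265 to 338 CPM. Endothelial cells, at 1.40 ± 0.853 CPM, were 75.1-fold below fibroblasts (adjusted p = 4.06e-26, where 73.6% of genes were called), and macrophages averaged 0.746 ± 0.398 CPM. No C1s1 UMI was seen in 383 T cells, which allows a share of cells with a UMI of up to 0.783% and sets no limit on cells expressing the gene. A C1s1 UMI was found in 73.3% of smooth muscle cells, 53.8% of pericytes and 51.1% of fibroblasts. Their median depths differed, from 4025 to 5251 UMIs in pericytes and 11238 to 16132 in fibroblasts, and with cells thinned to 2000 UMIs the shares were 42.0%, 32.3% and 19%, with 19, 89 and 592 shallower cells left out.

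Serping1, the inhibitor of both proteases, was a near-universal transcript of fibroblasts. It stood there at 1478 and 1470.5 CPM in the high-fibre libraries and 1409 and 1439 CPM in the controls, a mean of 1449 ± 31.7 CPM (SD, n = 4), and 94.7% of fibroblasts had at least 1 UMI. Smooth muscle cells were 3.81-fold lower at 382 ± 34.9 CPM (log2 1.93, SE 0.148, adjusted p = 2.34e-08, edgeR). Pericytes, at 344 ± 12.9 CPM, did not differ from smooth muscle beyond the spread between libraries (adjusted p = 0.053). Endothelial cells followed at 15.2 ± 3.64 CPM and macrophages at 4.87 ± 2.29 CPM. A Serping1 UMI was found in 66.9% of pericytes and 83% of smooth muscle cells, against 3.31% of B cells.

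C3 was counted mostly in fibroblasts, which held 95.3% of its UMIs. The 3 other main gates outside macrophages averaged 3.37 to 3.53 CPM. The fibroblast level was 361 ± 79.2 CPM (SD, n = 4), 31.4-fold above macrophages at 9.40 ± 1.94 CPM (log2 4.97, SE 0.136, adjusted p = 1.48e-17, edgeR, where 78.4% of genes were called). It was unevenly spread over fibroblasts. A C3 UMI was found in 53.1% of them, 970 of 6495 had 10 or more, and these held 68.6% of the fibroblast C3 UMIs. The cell with the most held 148. Serping1 in the same cells was spread evenly by comparison, the top 5% of fibroblasts holding 12.9% of its UMIs against 36.9% for C3.

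Fibroblasts were divided by marker genes into 5113 cells with at least 2 UMIs of Pi16 plus Cd248, genes of adventitial and progenitor-like fibroblasts, and 157 cells with at least 2 UMIs of Cilp plus Postn, genes of matrix-producing fibroblasts, and none of the former. C3 stood at 349 ± 79.0 CPM in the former and 89.6 ± 45.8 CPM in the latter (SD, n = 4), higher in 4 of 4 libraries by a log2 ratio of 2.06 ± 0.86. Serping1 followed at 1452 ± 38.4 against 807 ± 136 CPM, higher in 4 of 4 libraries (0.86 ± 0.29). The 1225 fibroblasts in neither set held C3 at 534 ± 89.4 CPM and C1s1 at 194 ± 47.3 CPM, above the 99.8 ± 9.97 CPM of C1s1 in the Pi16 or Cd248 cells. These remaining cells were also shallower in part, with medians of 5778 to 11292.5 UMIs against 12125.5 to 16550.

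A small amount of C3 came from myeloid cells. The Ccr2 macrophages held C3 at 42.6, 45.7, 41.0 and 41.0 CPM in the 4 libraries, against 10.3, 5.21, 4.25 and 3.83 CPM in the Lyve1, Folr2 or Timd4 cells. The Ccr2 cells were higher in every library, the reverse of what C1q and C3ar1 showed (log2 ratio −2.74 ± 0.54). In the 119 neutrophils, gated by Csf3r and Retnlg, C3 averaged 50.1 ± 18.3 CPM (SD, n = 4) on 18 UMIs. All 4 neutrophil values, from 39.4 to 77.5 CPM, lay above those of the whole macrophage gate, from 7.10 to 11.8 CPM. They overlapped those of the Ccr2 macrophages, and 1 library rested on 1 UMI.

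C4b, the classical-pathway component that C1s cuts, was counted mostly in macrophages and fibroblasts, which held 39.6% and 47.5% of its UMIs. Macrophages stood at 64.2 and 39.3 CPM in the high-fibre libraries and 24.2 and 44.1 CPM in the controls, a mean of 43.0 ± 16.5 CPM (SD, n = 4). Fibroblasts averaged 22.0 ± 10.5 CPM, 2.40-fold lower (log2 1.26, SE 0.132, adjusted p = 1.24e-07, edgeR), and endothelial cells 0.831 ± 0.531 CPM. Pericytes had 2 C4b UMIs, and none was seen in 176 smooth muscle cells, 383 T cells or 119 neutrophils, which allows shares of cells with a UMI of up to 1.70%, 0.783% and 2.52%. These limits do not cover cells that express C4b below what 1 UMI would show, and the median depth of neutrophils was 2319 to 3210.5 UMIs. Without the scaling factors the step from macrophages to fibroblasts was log2 0.94 (adjusted p = 5.19e-06), and without shared barcodes 1.20.

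**Figure D3:**
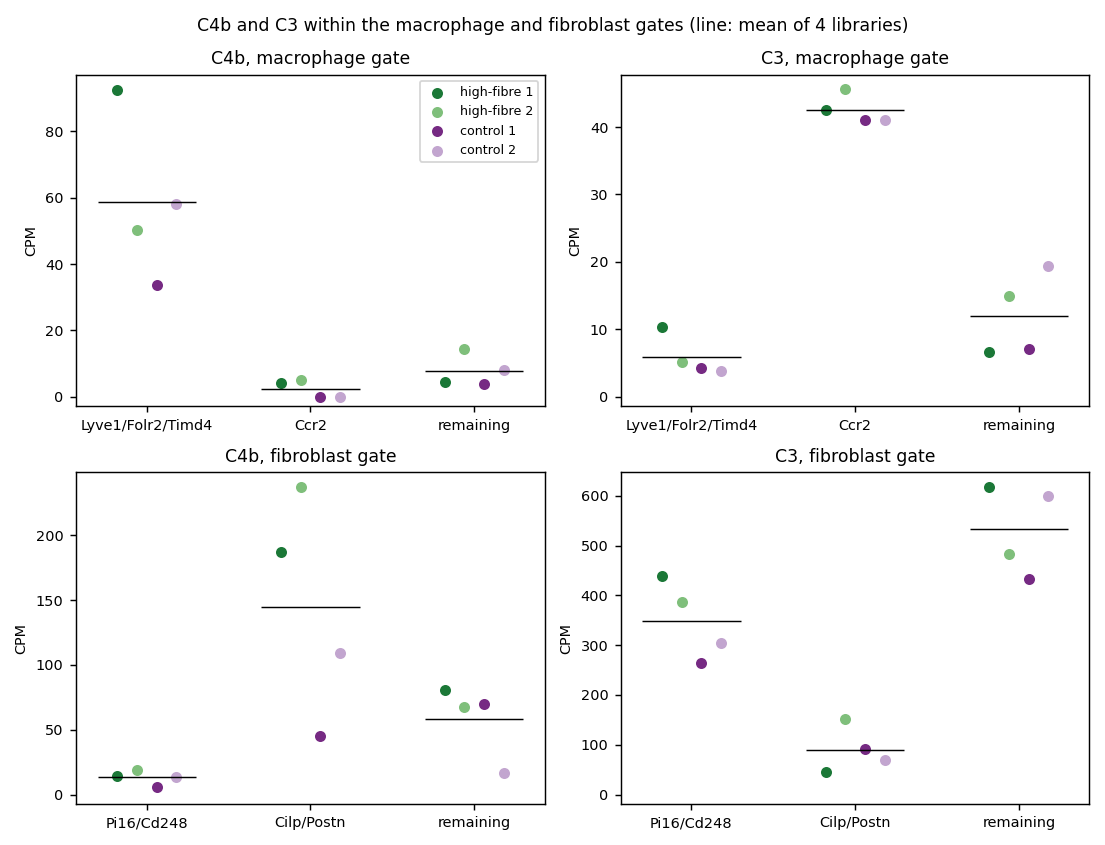
CPM of C4b and C3 in the macrophage gate (top) and fibroblast gate (bottom), divided by marker genes, with 1 point per library and lines at the means. C4b was high in Lyve1, Folr2 or Timd4 macrophages (33.6 to 92.5 CPM) and Cilp or Postn fibroblasts (45.3 to 237 CPM), and of the 2 named sets of each gate C3 was higher in the one where C4b was lower.

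Within both gates C4b was concentrated in few cells. In macrophages its level was higher in the Lyve1, Folr2 or Timd4 cells, at 58.7 ± 24.8 CPM against 2.25 ± 2.62 CPM in the Ccr2 cells (SD, n = 4), higher in 4 of 4 libraries by a log2 ratio of 4.58 ± 1.19. In fibroblasts its level was higher in the Cilp or Postn cells, at 187 and 237 CPM in the high-fibre libraries and 45.3 and 109 CPM in the controls, against 5.71 to 19 CPM in the Pi16 or Cd248 cells. The Cilp or Postn cells were higher in every library (log2 ratio of the Pi16 or Cd248 cells over them −3.22 ± 0.44, and −2.69 with looser gates). They are few, however, and held 295 of the 1780 fibroblast C4b UMIs (16.6%), against 888 (49.9%) in the Pi16 or Cd248 cells and 597 (33.5%) in the rest. The control values rested on 17 UMIs in 35 cells and 11 UMIs in 10 cells. In control 2 the level was 24.0 CPM with looser gates, and without shared barcodes 2 cells with no C4b UMI were left there, so the order did not hold in that library. In all, 519 of 6495 fibroblasts had a C4b UMI, and 36 cells with 10 or more held 43.9% of the fibroblast C4b UMIs. The remaining fibroblasts stood between, at 58.5 ± 28.8 CPM (SD, n = 4). Of the 2 named sets of each gate, the one with more C4b had less C3 in every library, both in fibroblasts and in macrophages, with all barcodes kept.

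Over the 20 sums of 5 gates and 4 libraries, the genes most like each member by Pearson correlation of log2(CPM + 5), among 8835 genes, were as follows. These are descriptions over sums that share libraries. For C1qa they were Pld4, Tyrobp and Mgl2 (r = 0.993 to 0.994), for C1qb Ccl6, Wfdc17 and Tyrobp (0.995 to 0.998), for C1qc Wfdc17, Fcgr3 and Lrrc25 (0.997 to 0.998), and for C3ar1 Adgre1, Cbr2 and Tnfaip8l2 (0.996 to 0.997). Many are myeloid genes, such as Tyrobp, an adaptor of myeloid receptors, and Adgre1 was a gate gene. C3 was most like Cxcl14, Negr1 and Htra3 (0.979 to 0.983), Serping1 like Col1a2, Gnao1 and Ddr2 (0.990 to 0.993), and C1ra like Olfml2b, Hmgn1 and Ptprs (0.969 to 0.987). Cacna2d1 and Ndrg2 were among the 3 most like C1s1 (0.994 and 0.992), and C4b, the least matched, was most like Reps2, Ccl7 and S100a4 (0.953 to 0.969). Between members, the C1q chains followed each other (r = 0.992 to 0.997) and C1ra followed Serping1 (0.951), while C3 and C4b were loosely related (0.563).

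The rest of the pathway was read from a list of 40 complement genes, of which 39 were in the count tables. With a mean of at least 10 CPM in some main gate there were 20. Of these, 7 were highest in macrophages, 5 in fibroblasts, 3 each in endothelial and smooth muscle cells and 2 in pericytes. Macrophages led for C5ar1, the C5a receptor, at 314 ± 24.6 CPM, for Cfp, properdin, which steadies the alternative convertase, at 220.5 ± 38.5 CPM, and for Vsig4, a complement receptor of resident macrophages, at 44.8 ± 10.2 CPM (SD, n = 4). Fibroblasts led for the decay-accelerating factor Cd55 at 314 ± 36.2 CPM and for C7, a part of the membrane attack complex, at 38.0 ± 8.45 CPM. Endothelial cells led for Cd93 at 772.5 ± 85.2 CPM and for the membrane attack inhibitor Cd59a at 115 ± 10.1 CPM. Pericytes led for the lectin-pathway collectin Colec11 at 1777 ± 73.7 CPM, and Vtn had been used to gate them.

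The question the study set was whether the mother's diet left a mark on the offspring's heart. For the C1q chains the diets were apart in endothelial cells, and close together in macrophages. In endothelial cells C1qa stood at 25.1 and 29.0 CPM in the high-fibre libraries and 9.10 and 7.30 CPM in the controls, a log2 fold of 1.71 (SE 0.158, edgeR). C1qb stood at 26.6 and 31.5 against 10.3 and 12.4 CPM (1.37, SE 0.145) and C1qc at 12.7 and 18.6 against 5.65 and 6.02 CPM (1.44, SE 0.203). Both high-fibre libraries were above both controls for each chain, as they were for 16.1% of the genes tested there. The fit called these 3 of the 8 members tested there and 0.0738% of 12187 genes, and since the genes were chosen on this contrast nothing is read from that count. Without shared barcodes the log2 folds were 1.68, 1.36 and 1.44, and the last was no longer called. Depth moved with diet: endothelial cells had a median of 4820 and 4687 UMIs in the high-fibre libraries and 5767 and 6355 in the controls, and the part of depth in the difference was not tested.

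In the other gates outside macrophages C1q as a sum had the same direction with all barcodes kept, at low levels. In pericytes C1qa stood at 18.0 and 37.6 CPM in the high-fibre libraries against 9.82 and 7.03 CPM (log2 1.71, SE 0.426), on 4 to 45 UMIs per library, and without shared barcodes the log2 fold was 1.70. In fibroblasts it stood at 10.8 and 18.2 against 7.13 and 6.09 CPM (1.13, SE 0.267, or 0.98 without shared barcodes). The 3 chains together stood in B cells at 64.5 and 331 CPM against 40.4 and 25.5 CPM, and in T cells at 258 and 115 against 19.7 and 39.9 CPM. These values rested on 93 and 267 against 41 and 7 UMIs in B cells, and 196 and 65 against 16 and 9 in T cells. A C1qb UMI was found in at most 9.05% of the B cells and 13.3% of the T cells of a library. The weight of single cells was not examined in these 2 gates. The 15 macrophage markers summed to 1112 and 1446 against 1024 and 1692 CPM in B cells, where the diets overlapped, and to 1095 and 1357 against 722 and 655.5 CPM in T cells. The summed C1q of both high-fibre libraries was above that of both controls in each of the 4 other main gates and the 4 side gates. Without shared barcodes this held in 7 of these 8 gates, and in smooth muscle the sums overlapped, at 40.3 and 57.0 against 28.3 and 42.8 CPM. The gates come from the same 4 libraries and are not independent. Both high-fibre libraries were above both controls for 15.6% of genes tested in fibroblasts and 16.1% in endothelial cells. In pericytes this was so for 1323 of 8797 genes and in smooth muscle for 692 of 4182. No such share was taken in the side gates. In macrophages the sum stood at 15123 and 16633 CPM against 16076 and 16864 CPM, so the groups overlapped (C1qa alone stood just below both controls), and the log2 folds of the chains lay between −0.08 and −0.02 (SE 0.0945 to 0.0976), or −0.11 and −0.04 without shared barcodes. No member was called in macrophages, fibroblasts, pericytes or smooth muscle, where 0.0%, 0.0149%, 0.159% and 0.0% of genes were called (edgeR). At an unadjusted p under 0.05 there were 1 of 8 members tested in macrophages, 3 of 9 in fibroblasts, 2 of 6 in pericytes and 0 of 3 in smooth muscle, where 3.73%, 6.38%, 5.97% and 3.8% of all genes tested were. DESeq2 called 3 members and 0.277% of genes in fibroblasts, and 0 members in these other gates, where it called 0.0%, 0.0114% and 0.0% of genes. Nothing is read from these counts either. With 2 libraries against 2, an exact permutation test of a single value cannot go below p = 0.33.

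**Figure D4:**
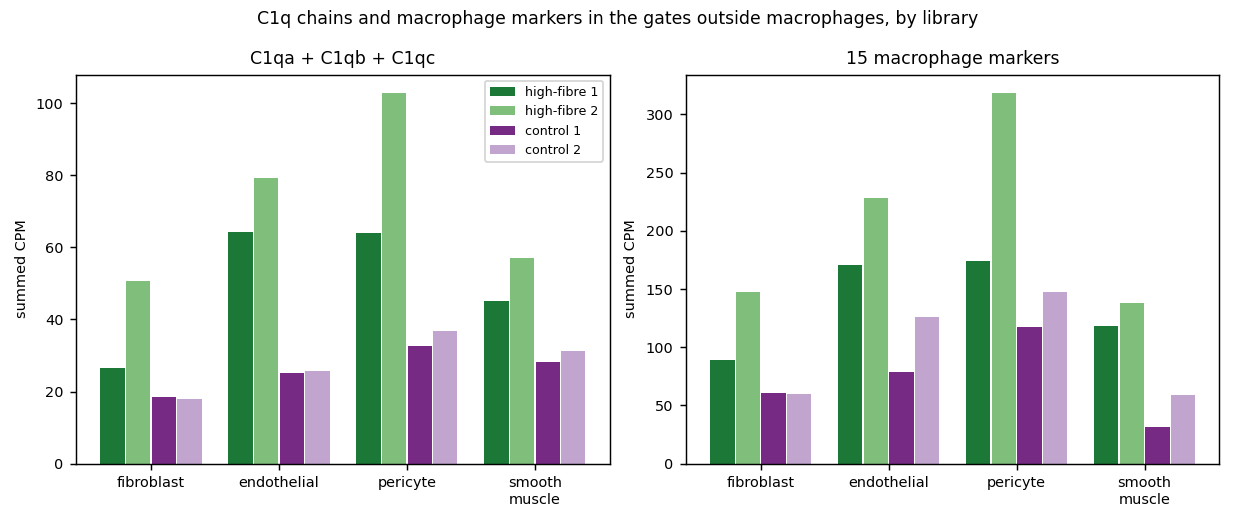
Summed CPM of C1qa, C1qb and C1qc (left) and of 15 macrophage markers (right) in the 4 main gates outside macrophages, with 1 bar per library. Both high-fibre libraries stand above both controls in every gate on the left and on the right, with C1q at 64.4 and 79.2 against 25.1 and 25.7 CPM in endothelial cells.

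Other macrophage transcripts moved with C1q in these gates. The 15 macrophage markers summed in endothelial cells to 170.5 and 228 CPM in the high-fibre libraries and 78.7 and 126 CPM in the controls. The mean was higher for 15 of 15 markers, and both high-fibre libraries were above both controls for 11. In fibroblasts the sums were 89.0 and 148 against 60.8 and 59.7 CPM (15 of 15, and 9 apart), in pericytes 174 and 318 against 118 and 148 CPM (14 of 15, and 6 apart) and in smooth muscle 118 and 138 against 31.8 and 59.2 CPM (11 of 15, and 7 apart). The shares of all genes tested with both high-fibre libraries above both controls are those given above. None of the 15 markers was at 0 in endothelial cells, fibroblasts or pericytes, while Fcgr1, Cx3cr1 and Ms4a7 were at 0 in smooth muscle. As a percent of the macrophage level in the same library, endothelial C1q stood at 0.426 and 0.476 against 0.156 and 0.152. Among all kept cells C1q stood at 3682 and 4123 CPM in the high-fibre libraries and 2699 and 2888 CPM in the controls, and macrophages were 13.8% and 14.2% of kept cells against 12.4% and 9.95%. The erythroid genes Hba-a1 and Hbb-bs summed in endothelial cells to 5625 and 1678 against 867 and 1147 CPM, and control 2 fell to 79.6 CPM without shared barcodes. Without them the macrophage markers summed in endothelial cells to 167 and 226 against 75.9 and 95.6 CPM, and in fibroblasts to 88.1 and 146 against 60.6 and 61.9 CPM. C1q of all kept cells then stood at 3656 and 3967 against 2685 and 2082 CPM. The part of any of these in the C1q difference was not tested.

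Single cells with many C1q UMIs were few but weighed on some values. In high-fibre 1, 1 endothelial cell held 137 of 536 C1q UMIs, and in high-fibre 2, 1 fibroblast held 250 of 1297. In high-fibre 2 also, 1 pericyte held 23 of 123, and without it pericyte C1q there stood at 84.1 CPM. Leaving out cells with 10 or more C1q UMIs, endothelial C1q stood at 48.0 and 79.2 CPM in the high-fibre libraries against 23.9 and 25.7 CPM in the controls. Fibroblast C1q then stood at 26.5 and 41.0 against 18.6 and 18.0 CPM, and the diets did not overlap in either gate. C1qa was 39.0% of C1q UMIs in macrophages (exact 95% interval 38.9 to 39.2) and 36.3% in endothelial cells (34.1 to 38.5), and C1qb 36.2% (36.0 to 36.3) and 41.4% (39.2 to 43.6). C1qb thus had a larger share of the C1q UMIs of endothelial cells than of macrophages. This was not particular to endothelial cells: the share was 41.2% in fibroblasts (39.2 to 43.2) and 44.5% in pericytes (38.1 to 51.1). In smooth muscle it was 40.7%, with a wide interval (27.6 to 55.0) that included the macrophage share. These intervals cover counting error only. Within Xist cells the endothelial C1qa log2 fold was 1.51 and within cells with Y-linked UMIs 1.85 (1.35 and 1.88 without shared barcodes), so the difference was present in cells of both sexes.

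**Figure D5:**
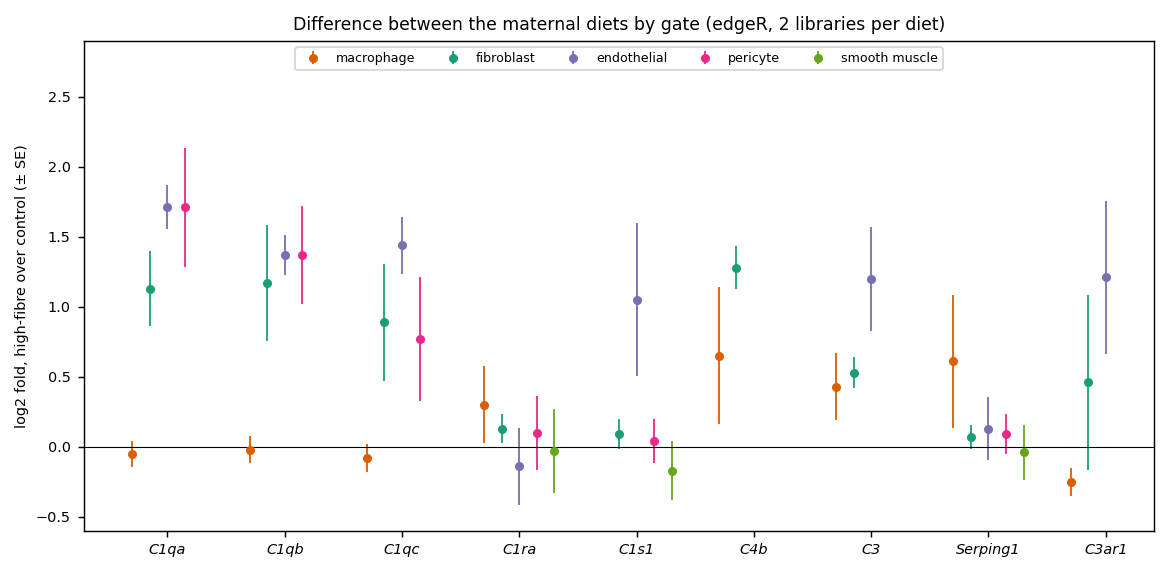
Log2 fold of high-fibre over control with its SE (y axis) for each gene (x axis) in each main gate where it passed the filter on low counts, from edgeR with 2 libraries per diet. C1q chains sit between 0.77 and 1.71 in fibroblasts, endothelial cells and pericytes and near 0 in macrophages, while C1ra, C1s1 and Serping1 sit near 0 where they are highly expressed.

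In fibroblasts, C4b and C3 also stood higher in the high-fibre libraries. C4b stood at 33.5 and 28.1 CPM in the high-fibre libraries and 11.3 and 15 CPM in the controls, a log2 fold of 1.28 (SE 0.154), or 1.51 without shared barcodes. C3 stood at 455 and 392 against 274.5 and 321 CPM, a log2 fold of 0.53 (SE 0.111), or 0.34 (SE 0.196) without shared barcodes. With all barcodes kept, both high-fibre libraries were above both controls for each, as they were for 15.6% of the 13379 genes tested in fibroblasts. Without shared barcodes C3 overlapped, at 462 and 396.5 against 276 and 411 CPM, with 183 fibroblasts left in control 2. By fibroblast set, with all barcodes kept, C3 was apart in the Pi16 or Cd248 cells (439 and 387 against 264 and 305 CPM). It overlapped in the Cilp or Postn cells (45.5 and 152.5 against 90.7 and 69.6 CPM) and in the remaining cells (618.5 and 484 against 433 and 599 CPM). The log2 fold was above 0 for all 9 members in fibroblasts, with a median of 0.53, against 50.1% of all genes and a median of 0.00, but without shared barcodes C1ra, C1s1 and Serping1 stood below 0 there. Of the fibroblast sets, C4b was apart by diet in the Cilp or Postn cells, with 187 and 237 against 45.3 and 109 CPM, the controls resting on few UMIs as given above, and narrowly so in the Pi16 or Cd248 fibroblasts, with 14.3 and 19 against 5.71 and 13.8 CPM. In the remaining fibroblasts the groups overlapped, with 80.9 and 67.3 against 69.5 and 16.3 CPM. In macrophages its groups overlapped (log2 0.65, SE 0.488), but without shared barcodes they stood apart, at 65.2 and 39.3 against 24.4 and 32.6 CPM (0.95, SE 0.359).

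Sex of the cell moved with C4b and C3, and the libraries held the sexes in unequal shares. In macrophages C4b was higher in cells with Y-linked UMIs than in Xist cells in 4 of 4 libraries (log2 ratio 0.65 ± 0.26). In fibroblasts it was higher in 3 of 4, with ratios of 1.99, 1.32 and 1.42, while high-fibre 1 stood at −0.63. C3 in fibroblasts was higher in cells with Y-linked UMIs in 4 of 4 libraries, at 476, 510.5, 458 and 370 CPM against 381, 299, 180.0 and 299 CPM (log2 ratio 0.68 ± 0.49). Taken within Xist fibroblasts, the diet log2 fold was 1.64 for C4b and 0.50 for C3, and within fibroblasts with Y-linked UMIs 0.77 and 0.25. Without shared barcodes these were 1.84, 0.25, 1.06 and 0.06. For C4b the Xist value leaned on high-fibre 1, at 42.7 CPM beside 12.1 in high-fibre 2 and 7.48 and 8.70 CPM in the controls. The part of sex in the diet difference of either gene was not tested. C4a, which shares sequence with the 3′ end of C4b as given above, was not in the count tables. Its part in the C4b values of either sex was therefore not tested.

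The proteases and their inhibitor showed little between the diets where they were highest. In fibroblasts the log2 fold was 0.13 for C1ra (SE 0.102), 0.09 for C1s1 (SE 0.108) and 0.07 for Serping1 (SE 0.0838). In pericytes C1s1 stood at 0.04 (SE 0.155), and in smooth muscle at −0.17 (SE 0.21). The groups overlapped for C1ra and C1s1 in each of these gates. For Serping1 in fibroblasts both high-fibre libraries were just above both controls, and without shared barcodes the log2 folds of C1ra, C1s1 and Serping1 there were −0.12, −0.17 and −0.01. For C3ar1 both high-fibre libraries were below both controls in macrophages, at 250.2 and 289.8 against 328 and 319 CPM, a log2 fold of −0.25 (SE 0.0991), or −0.23 without shared barcodes. Both high-fibre libraries lay below both controls for 14.8% of the 11396 genes tested in macrophages.

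Of the other 40 complement genes, none was called between the diets in any main gate by edgeR or DESeq2. At an unadjusted p under 0.05 there were 3 of 20 tested in macrophages, 2 of 21 in fibroblasts, 4 of 17 in endothelial cells, 1 of 8 in pericytes and 0 of 8 in smooth muscle. The shares of all genes tested were 3.73%, 6.38%, 5.15%, 5.97% and 3.8%. DESeq2 called 0.156% of genes in endothelial cells. Calr, calreticulin, a chaperone that also binds C1q, stood lower in both high-fibre libraries in 3 gates, with log2 folds of −0.38 in fibroblasts (SE 0.0954), −0.42 in endothelial cells (SE 0.0971) and −0.54 in pericytes (SE 0.141), or −0.38, −0.42 and −0.53 without shared barcodes. In endothelial cells it stood at 303 and 295 against 417 and 387 CPM. Both high-fibre libraries were below both controls for 2593 of 13379 genes in fibroblasts, 1982 of 12187 in endothelial cells and 1690 of 8797 in pericytes. Cfp stood in macrophages at 266 and 234 CPM in the high-fibre libraries against 175 and 207 CPM (log2 0.40, SE 0.128, or 0.55 without shared barcodes). They were above both controls there for 1686 of 11396 genes. The median log2 fold of the list was 0.09 in macrophages, 0.07 in fibroblasts and −0.14 in endothelial cells. The median over all genes tested was 0.00 in each of these gates.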

How the data were processed

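Single-cell 3′ RNA sequencing counted transcripts in 4 heart libraries, 2 per maternal diet. The authors deposited raw UMI counts per gene and cell barcode, made with Cell Ranger 3.1.0 on mm10 per the submitters' processing notes. The labels name 10x chemistry v2, and replicate numbers come from the titles. The other deposited files hold names of genes and barcodes. Cells with at least 500 UMIs and 250 genes and at most 20% mitochondrial UMIs were kept, and simulated doublets were left out within each library (the highest-scoring 0.8% per 1000 barcodes, 2000 variable genes, 30 components, seed 20).

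UMIs were summed per gate and library. Diets were compared by edgeR 4.0.16 (limma 3.58.1, R 4.3.3) with robust quasi-likelihood fits and TMM scaling, 1 fit per gate, after filterByExpr with a minimum count of 10, and p-values were adjusted by Benjamini-Hochberg within the gate (threshold 0.05). Gates were compared in 1 fit of all 20 sums with library as a term. Fitted folds use TMM factors and CPM values do not: the mean log2 factor was −0.32 for macrophages and 0.32 for pericytes, so folds between these gates exceed ratios of CPM. Ratios between sub-gates and sexes add 1 CPM. Programs were tested on simulated data. Also used were DESeq2 1.42.0 (alternative), Python 3.11.15, numpy 2.4.6, scipy 1.17.1, scikit-learn 1.9.0 and matplotlib 3.10.9.

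The members, gene lists and tests were chosen with earlier results of these data known. All 9 members are named in every main gate where tested. Pathway genes are named with a mean of at least 10 CPM in a main gate, and the 3 genes most like each member among those with at least 20 CPM. Alternatives were other gates, filters, scaling, a replicate term and each library left out. Of these, 2, leaving out shared barcodes and scaling by totals, were added after seeing the data. Some genes, and 1 side gate whose definition needs one of them, are not reported here. Gene IDs matched the annotation for 31011 of 31053 (99.9%).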

Additional observations from a re-analysis of the deposited data

Results flagged for a closer look

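For C1qa, both high-fibre libraries lay above both controls in fibroblasts, endothelial cells and pericytes and just below both in macrophages. The high-fibre mean in fibroblasts was 14.5 CPM, and in macrophages C1qa stood at 5953 and 6414 CPM in the high-fibre libraries against 6430.5 and 6416.5 CPM. The difference between the gates was not tested. For C3ar1, both high-fibre libraries lay above both controls in endothelial cells and smooth muscle and below both in macrophages and pericytes. The high-fibre mean in endothelial cells was 1.41 CPM, and the smooth muscle and pericyte levels rested on 2 and 3 UMIs. This difference was not tested either. Both high-fibre libraries were above both controls for 15.6% of all genes tested in fibroblasts and 16.1% in endothelial cells. In pericytes this was so for 1323 of 8797 genes and in smooth muscle for 692 of 4182. They were below both controls for 14.8% of genes in macrophages and 1690 of 8797 in pericytes.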

How the results depend on the processing

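Between gates, 103 of 108 repeats of a member's step kept direction and side of the threshold, and the other 5 were C1ra in fibroblasts over smooth muscle, which then passed. Counts of calls between the diets depended strongly on the processing, and the cause was not tested. In macrophages the 0 genes called became 1 with strict gates and 54 with no low-count filter. In fibroblasts 2 became 14 with loose gates, 275 with no filter, 37 with DESeq2 and 14 without cells holding macrophage-marker UMIs. In endothelial cells 9 became 5 with loose gates, 40 with no doublet removal, 5 without shared barcodes, 136 with no filter, 14 with totals only, 19 with DESeq2 and 19 without cells holding macrophage-marker UMIs. In pericytes 14 became 1 with strict gates, 30 with no filter, 1 with DESeq2 and 2 without cells holding macrophage-marker UMIs. In smooth muscle 0 became 1 with strict gates, 2 with no filter and 1 with totals only.

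Leaving out each library in turn gave 0 to 43 genes in macrophages (43 without high-fibre 2), 5 to 239 in fibroblasts (37 without high-fibre 1, 239 without high-fibre 2, 5 without control 1, 7 without control 2), 12 to 150 in endothelial cells (21 without high-fibre 2, 150 without control 1, 94 without control 2), 13 to 38 in pericytes (38 without high-fibre 2, 32 without control 2) and 0 to 24 in smooth muscle (7 without high-fibre 1, 24 without control 2). An arm left with 1 library was assumed to vary like the other.

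The labels do not say whether libraries with the same replicate number were handled together. With 2 pairs, the correlation of deviations was 0.33 in macrophages and 0.07 to 0.16 elsewhere, and a pairing was not tested. With the replicate block, calls were 51 genes in macrophages, 21 in fibroblasts, 52 in endothelial cells and 36 in pericytes, and 2 members were called in pericytes.

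Of the members, 0 called in fibroblasts became 2 with loose gates, 1 without shared barcodes, 4 with no filter and 3 with DESeq2, and 0 to 4 with a library left out (4 without high-fibre 1, 2 without high-fibre 2, 1 without control 2). The 3 in endothelial cells became 1 with loose gates, 1 with strict gates and 1 without cells holding macrophage-marker UMIs, and 1 to 3 with a library left out (1 without high-fibre 2). In pericytes 0 became 2 with no filter, and 0 to 1 with a library left out (1 without high-fibre 1 or control 2). Without cells holding macrophage-marker UMIs the endothelial log2 folds of C1qa, C1qb and C1qc were 1.77, 1.11 and 1.57.

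The sign of 28 diet log2 folds turned, near 0 or at low levels except for C1ra in smooth muscle. That gene, at a mean of 108 CPM there, reached 0.55 without control 1. In macrophages C1qb turned to 0.02 without high-fibre 1 and 0.02 without control 2. In fibroblasts C1ra turned to −0.12 without shared barcodes and −0.01 without control 1, C1s1 to −0.17 and −0.06, Serping1 to −0.01 without shared barcodes, and C3ar1 to −0.12 with strict gates and −0.36 without high-fibre 2. In endothelial cells C1ra turned to 0.30 with loose gates, 0.02 with strict gates, 0.03 without shared barcodes and 0.06 without high-fibre 1, and Serping1 to −0.30 without high-fibre 2. In pericytes C1ra turned to −0.03 without high-fibre 1 and −0.10 without control 2, and C1s1 to −0.03 with strict gates, −0.09 without high-fibre 2 and −0.11 without control 1. In smooth muscle C1ra turned to 0.22 with loose gates, 0.03 with strict gates, 0.05 without shared barcodes, 0.09 with the replicate block and 0.55 without control 1, and Serping1 to 0.08 with loose gates, 0.05 without high-fibre 2, 0.12 without control 1 and 0.11 without cells holding macrophage-marker UMIs.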
